A study of Mus musculus with 6 samples.

Results

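The 8 genes described here encode the core of the sterol-regulated SREBP pathway and 1 ubiquitin ligase of lipoprotein receptors: Srebf1, Srebf2, Scap, Insig1, Insig2, Mbtps1, Mbtps2 and Mylip. They were chosen by gene symbol and matched through Ensembl identifiers to 8 of the 35709 genes in the table. All 8 reached a 6-library mean of 1 FPKM, the minimum for testing, which 11343 genes passed. The lowest of them was Mylip, with a mean of 1.63 FPKM.

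The libraries came from AML12 cells, a line established from hepatocytes of a mouse transgenic for human transforming growth factor alpha. In 3 libraries, called siUhrf2, the cells had received an siRNA against Uhrf2, which encodes a nuclear protein that binds modified cytosines and has ubiquitin ligase activity. The other 3 libraries, called siCtrl and labelled wild type, had received a scrambled siRNA. Both groups were transfected with Lipofectamine RNAiMAX and collected after 72 h. Both are 1 cell line, and nothing in the labels says that replicates were separate cultures, so each p-value measures only the spread between these libraries, which may be technical. The number of siRNAs used and their sequences were not given in the sources used here.

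SREBPs are transcription factors made as membrane proteins of the endoplasmic reticulum. When sterols are low, the escort protein SCAP carries them in COPII vesicles to the Golgi, where the site-1 and site-2 proteases release the part that enters the nucleus and activates genes of cholesterol and fatty acid synthesis. When sterols are high, INSIG proteins hold SCAP in the endoplasmic reticulum. Insig1 and Srebf2 are themselves textbook targets of SREBP, and the MYLIP ligase, also called IDOL, is made in response to the sterol-activated nuclear receptor LXR.

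Promoter bases are shown for both retention genes, of which Insig1 alone rose past the test, and for Srebf2, whose window held the letters of a sterol regulatory element. The sequences are from RefSeq on GRCm38.p6, run 5′ to 3′ on the strand of the gene and end before the gene's annotated start in GENCODE M21. Positions given for motifs are of their first base, counted from the RefSeq start site. Capitals mark the sterol regulatory element core (TCACCCCA), the E-box (CACGTG) and the CCAAT box, on either strand.
Insig1, chr5:28071162-28071362, plus strand: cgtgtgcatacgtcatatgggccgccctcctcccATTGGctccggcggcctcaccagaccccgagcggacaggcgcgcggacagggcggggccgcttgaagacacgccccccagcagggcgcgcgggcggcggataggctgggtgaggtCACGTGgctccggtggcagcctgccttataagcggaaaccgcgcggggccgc
Srebf2, chr15:82147019-82147180, plus strand: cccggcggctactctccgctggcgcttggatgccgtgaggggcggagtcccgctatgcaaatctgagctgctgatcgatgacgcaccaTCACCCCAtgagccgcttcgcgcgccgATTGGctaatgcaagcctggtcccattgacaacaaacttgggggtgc
Insig2, chr1:121332663-121332839, minus strand: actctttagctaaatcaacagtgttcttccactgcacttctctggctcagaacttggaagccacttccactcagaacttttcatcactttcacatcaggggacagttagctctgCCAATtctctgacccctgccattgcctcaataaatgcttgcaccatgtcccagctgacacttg

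Both strands of all 32851 RefSeq promoter windows of 300 bases, 250 before the start and 50 after it, were searched for these letters and for the GC box (GGGCGG). The core TCACCCCA, whose letters were chosen after the promoters had been read, was in 1.56% of windows and in that of Srebf2, at position -162 from the start. The E-box was in 7.15% of windows and, among the 8 genes, in those of Scap and Insig1. In Insig1 it was at -101, with GC boxes at -229, -167 and -126 and a CCAAT box on the opposite strand at -216. The first Insig2 window held CCAAT boxes at -136, -46 and -29, and no Insig2 window held the core or an E-box. CCAAT boxes were in 37.4% and GC boxes in 35.7% of all windows. A second form of the element, TCACNCCAC, overlaps the core where N is C. It was in 1.24% of windows and in none of the 13 windows of the 8 genes. These matches describe letters in short windows and show no binding.

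The targeted gene checked the labels. Uhrf2 had 2942, 2805 and 2777 normalized counts in siUhrf2 libraries, against 8899, 9058 and 9018 in siCtrl libraries. It fell by 1.66 on the log2 scale (SE 0.034, limma adjusted p = 7.58e-11). Libraries held 44.6 to 53.1 M estimated reads. The change was broad over the genome: limma called 61.0% of the 11343 tested genes at an adjusted p under 0.05, with 29.9% higher and 31.1% lower in siUhrf2 libraries, and 66.7% had siUhrf2 and siCtrl libraries in separate ranges. The median log2 fold change of all tested genes was -0.01, and the middle of the distribution, from the 5th to the 95th percentile, ran from -0.60 to 0.52. A call of a small difference is therefore common here, and the sizes below are to be read against that range.

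Of 8 hepatocyte markers, 4 were at a mean of 1 FPKM or more, namely Trf, Hnf4a, Apob and Ttr, while Alb, Apoa1, Tat and Cyp3a11 were below it. Their summed level was 893 to 973 FPKM in siUhrf2 libraries and 1083 to 1211 FPKM in siCtrl libraries. Trf made up most of this sum, with means of 804 FPKM in siUhrf2 libraries and 1017 FPKM in siCtrl libraries, while Hnf4a was higher in siUhrf2 libraries by 0.09 on the log2 scale (limma adjusted p = 0.022) and Apob and Ttr did not pass the test. The 4 cholangiocyte markers summed to 552 to 602 FPKM in siUhrf2 libraries and 302 to 336 FPKM in siCtrl libraries, with 3 of 4 above 1 FPKM and Epcam at 0. Krt19 made up most of this sum, with means of 537 FPKM in siUhrf2 libraries and 273 FPKM in siCtrl libraries, while Krt7 fell by 0.16 and Sox9 rose by 0.17 on the log2 scale (limma adjusted p = 0.0042 and 0.0056). The 7 macrophage and leukocyte markers summed to 2.92 to 3.79 FPKM in siUhrf2 libraries and 7.45 to 9.19 FPKM in siCtrl libraries, with Adgre1 and Clec4f at 0. The 5 stellate cell and fibroblast markers reached at most 1.45 FPKM in sum, and the 4 endothelial markers at most 0.11 FPKM. The part of these marker differences in the results below was not tested.

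Among the 8 genes, 4 rose in siUhrf2 cells, 0 fell and 4 did not pass the test. The change of Insig1, 2.97-fold, was the only one past 1.5-fold. Srebf1 rose by 1.22-fold and Srebf2 by slightly more (0.32 on the log2 scale), close to the median size of all called genes, 1.22-fold. Mbtps1 rose by 1.12-fold (0.17 on the log2 scale), below that median. The called share, 50% of 8, was below the 61.0% over all tested genes, and the median log2 fold change of the 8 was 0.10, against -0.01 over all tested genes. In bulk RNA, a change in the share of cells that express a gene and a change in RNA per cell cannot be told apart.

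**Figure D1:**
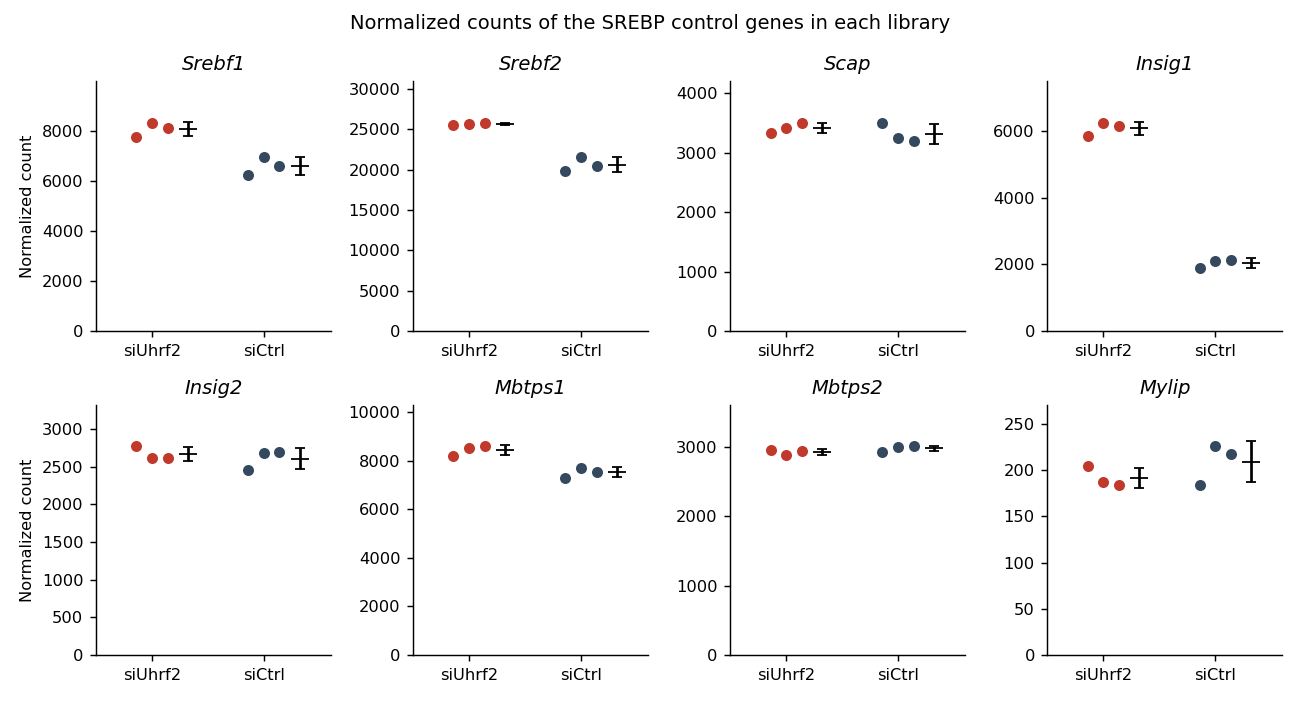
Normalized count of each of the 8 genes (y axis, from 0) in siUhrf2 libraries (red) and siCtrl libraries (dark blue); each point is 1 library, and the bar beside the points is the mean with its SD over 3 libraries. For Insig1 the siUhrf2 libraries lie between 5844 and 6241 and the siCtrl libraries between 1886 and 2139.9, while the groups overlap for Scap, Insig2, Mbtps2 and Mylip.

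Both genes for the transcription factors rose. Srebf1, on chr11:60199089-60222581 (minus strand), encodes SREBP-1a and SREBP-1c, which the gene-level values do not separate. It had 7761, 8329 and 8115 normalized counts in siUhrf2 libraries, against 6242, 6952 and 6597 in siCtrl libraries. The lowest siUhrf2 library lay above the highest siCtrl library. On the log2 scale the fold change was 0.29 (SE 0.043, 95% interval 0.20 to 0.38, limma adjusted p = 0.00011).

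Srebf2, on chr15:82147181-82205379 (plus strand), encodes SREBP-2, the form most tied to cholesterol synthesis. Its normalized counts were 25510.2, 25636 and 25794 in siUhrf2 libraries, against 19768, 21609 and 20454 in siCtrl libraries. The siUhrf2 libraries were almost level, with an SD of 142 around a mean of 25647, and the siCtrl libraries spread more widely, with an SD of 931 around 20610. The groups did not overlap, and the log2 fold change was 0.32 (SE 0.037, 95% interval 0.24 to 0.40, limma adjusted p = 1.92e-05).

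The ratio of Srebf1 to Srebf2 in FPKM was 0.469, 0.501 and 0.485 in siUhrf2 libraries, against 0.487, 0.496 and 0.497 in siCtrl libraries. The groups overlapped, and the difference in log2 ratio was -0.03 (SE 0.029, exact two-sided permutation p = 0.60, n = 3 each). This small difference rested on single libraries: it was -0.0013 without siUhrf2 replicate 1 (exact permutation p = 1) and -0.049 without siUhrf2 replicate 2 (exact permutation p = 0.10, the smallest that 2 against 3 libraries can give).

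Of the genes that move or hold the SREBPs, only Insig1 passed the test. Insig1, on chr5:28071363-28078662 (plus strand), encodes the short-lived retention protein whose own transcription is driven by SREBP. It had 5844, 6241 and 6131 normalized counts in siUhrf2 libraries, against 1886, 2111 and 2139.9 in siCtrl libraries. Every siUhrf2 library stood far above every siCtrl library. The fold change was 2.97 (95% interval 2.76 to 3.20), or 1.57 on the log2 scale (SE 0.049, limma adjusted p = 1.24e-09). By log2 fold change Insig1 ranked 25 from the top of the 11343 tested genes.

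Insig2, on chr1:121304353-121332589 (minus strand), encodes the second retention protein, which is known from liver work to be less dependent on SREBP. Its normalized counts were 2769, 2614 and 2614 in siUhrf2 libraries, against 2452, 2676 and 2696 in siCtrl libraries. The ranges crossed, and the log2 fold change was 0.03 (SE 0.046, 95% interval -0.07 to 0.13, limma adjusted p = 0.56), and its sign depended on siCtrl replicate 1: without that library it was -0.01, still not called.

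Scap, on chr9:110333288-110384950 (plus strand), encodes the escort that senses sterols. It had 3328, 3417 and 3496 normalized counts in siUhrf2 libraries, against 3506, 3247 and 3197 in siCtrl libraries. The highest value of all 6 belonged to a siCtrl library. Scap had a log2 fold change of 0.04 (SE 0.042, 95% interval -0.05 to 0.13, limma adjusted p = 0.40).

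**Figure D2:**
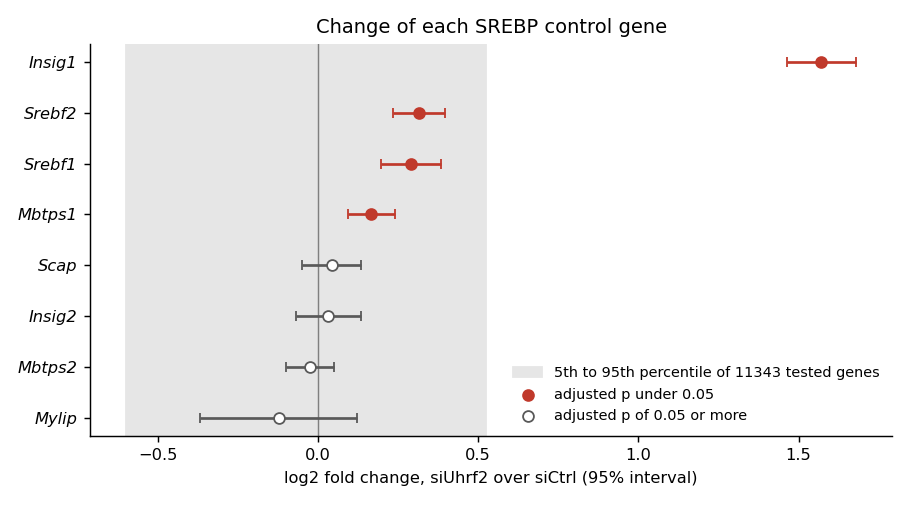
Log2 fold change of each of the 8 genes, siUhrf2 over siCtrl (x axis), with its 95% interval from limma; filled red points have an adjusted p under 0.05 and open points do not, and the grey band runs from the 5th to the 95th percentile of all 11343 tested genes. Insig1, at 1.57, lies outside the band, and the other 7 lie inside it, between -0.12 and 0.32.

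The balance of these transcripts was also compared within each library, per unit of length. The ratio of Insig1 to Insig2 in FPKM was 0.957, 1.08 and 1.06 in siUhrf2 libraries, against 0.349, 0.358 and 0.360 in siCtrl libraries. The log2 ratio was higher by 1.54 (SE 0.057), with no overlap between groups. Its exact two-sided permutation p was 0.10, the smallest that 3 against 3 libraries can give, and 0.13 after Benjamini-Hochberg adjustment over the 4 ratios computed (n = 3 each). Since Insig2 had a log2 fold change of 0.03, this difference mostly repeats the rise of Insig1, 1.57, in the same libraries.

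The summed FPKM of Insig1 and Insig2 over that of Scap was 2.15, 2.10 and 2.04 in siUhrf2 libraries, against 1.24, 1.48 and 1.51 in siCtrl libraries. The log2 difference was 0.58 (SE 0.092, exact permutation p = 0.10, adjusted 0.13, n = 3 each). This sum weighs both genes by the length used for FPKM. With the longest protein-coding transcript of each gene as its length, an alternative chosen after the data had been seen, the ratio was 3.92 to 4.06 in siUhrf2 libraries and 1.94 to 2.37 in siCtrl libraries, a log2 difference of 0.87. Insig2 and Scap had log2 fold changes of 0.03 and 0.04, so this ratio too mostly repeats the rise of Insig1.

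**Figure D3:**
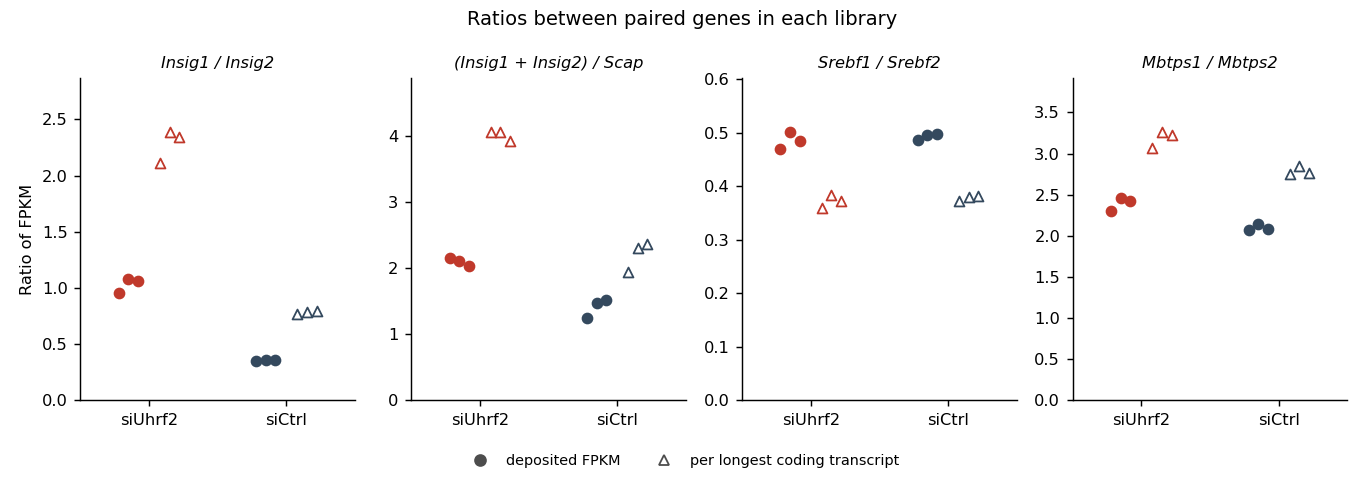
Ratio of FPKM between genes of a pair (y axis, linear, from 0) in siUhrf2 and siCtrl libraries; filled circles use the deposited FPKM and open triangles use the length of the longest protein-coding transcript, 1 point per library. The Insig1 to Insig2 ratio of the deposited FPKM lies between 0.957 and 1.08 in siUhrf2 libraries and between 0.349 and 0.360 in siCtrl libraries, and the Srebf1 to Srebf2 ratios of the 2 groups overlap.

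Of the Golgi protease genes, Mbtps1 rose and Mbtps2 did not pass the test. Mbtps1, on chr8:119508156-119558735 (minus strand), encodes the site-1 protease, which makes the first cut in the SREBP loop. It had 8204, 8505 and 8581 normalized counts in siUhrf2 libraries, against 7298, 7711 and 7518 in siCtrl libraries. The groups were separate by a small margin. The log2 fold change was 0.17 (SE 0.034, 95% interval 0.09 to 0.24, limma adjusted p = 0.0011).

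Mbtps2, on chrX:157535371-157598715 (minus strand), encodes the site-2 protease, which cuts within the membrane. Its normalized counts were 2964, 2885 and 2947 in siUhrf2 libraries, against 2937, 2998 and 3010.2 in siCtrl libraries. The ranges crossed, and the spread was small in both groups, with SDs of 41.7 in siUhrf2 libraries and 39.4 in siCtrl libraries. The log2 fold change was -0.02 (SE 0.035, 95% interval -0.10 to 0.05, limma adjusted p = 0.56), and its sign turned under quantile normalization, to 0.0012.

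The Mbtps1 to Mbtps2 ratio of FPKM was 2.31, 2.46 and 2.43 in siUhrf2 libraries, against 2.07, 2.14 and 2.08 in siCtrl libraries. The log2 difference was 0.19 (SE 0.032, exact permutation p = 0.10, adjusted 0.13, n = 3 each), with no overlap. As Mbtps2 hardly changed, this difference mostly repeats the rise of Mbtps1 in the same libraries.

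Mylip, on chr13:45389742-45412022 (plus strand), was the weakest of the 8 genes. It had 204, 187 and 184 normalized counts in siUhrf2 libraries, against 184, 226 and 218 in siCtrl libraries. The siUhrf2 libraries, from 184.2 to 204.1, lay between the lowest and the highest siCtrl library, 184.1 and 225.9. The log2 fold change was -0.12 (SE 0.112, 95% interval -0.37 to 0.12, limma adjusted p = 0.37), and this interval is the widest of the 8. A change of the size seen for Srebf2 in the upward direction lies outside it, whereas a decrease of similar size does not.

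In both groups Srebf2 had the highest level per length and Mylip the lowest. The siUhrf2 libraries averaged 230 ± 1.40 FPKM for Srebf2, 112 ± 3.0 for Srebf1, 71.4 ± 1.75 for Insig1, 69.2 ± 3.06 for Insig2, 67.1 ± 1.04 for Scap, 62.0 ± 0.83 for Mbtps1, 25.9 ± 0.57 for Mbtps2 and 1.55 ± 0.10 for Mylip (FPKM, SD, n = 3). The siCtrl libraries averaged 187 ± 7.64 FPKM for Srebf2, 92.2 ± 4.56 for Srebf1, 68.3 ± 3.30 for Insig2, 65.8 ± 3.55 for Scap, 55.7 ± 1.29 for Mbtps1, 26.6 ± 0.26 for Mbtps2, 24.3 ± 1.57 for Insig1 and 1.71 ± 0.17 for Mylip (FPKM, SD, n = 3). Insig1 thus stood above Insig2, Scap, Mbtps1 and Mbtps2 in mean level in siUhrf2 cells and below all of them in siCtrl cells. Insig1 and Insig2 overlapped in range in siUhrf2 libraries, as did Insig2 and Scap in both groups.

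The order of levels depends on the length behind FPKM. The deposited values imply lengths of 1.47 kb for Srebf1, 1.03 kb for Scap and 0.783 kb for Insig2, while their longest protein-coding transcripts in GENCODE M21 measure 4.30, 4.23 and 2.70 kb. Per length of the longest transcript, the siUhrf2 order was Srebf2, Insig1, Mbtps1, Srebf1, Insig2, Scap, Mbtps2 and Mylip, with Mbtps1 and Srebf1 overlapping. The siCtrl order was Srebf2, Mbtps1, Srebf1, Insig2, Scap, Insig1, Mbtps2 and Mylip, with Scap and Insig1 overlapping. Fold changes of a single gene are not touched by this choice of length.

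Among the siCtrl libraries, replicate 1 was the lowest for 7 of the 8 genes and the highest for Scap. Among the siUhrf2 libraries, replicate 1 was the lowest for 5 of the 8 and the highest for 3. In both groups the genes for which it was lowest included every called gene of the 8. Some genes overlap others on the genome, and whether counting used strand was not given in the sources used here. At its end, Srebf1 shares 109 bases with Rai1 on the other strand, which had a mean of 21 FPKM and a log2 fold change of -0.09 (limma adjusted p = 0.14). Yy2, a zinc finger gene that lies inside Mbtps2 on the same strand, had a mean of 2.0 FPKM and rose by 0.56 on the log2 scale (limma adjusted p = 0.034). The transcript Gm49502 inside Srebf2 had a mean of 1.47 FPKM and rose by 0.35 (limma adjusted p = 0.028). The microRNA gene Mir33, which lies within Srebf2, was not analysed here.

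The genes with the most similar profiles were found among 9029 other genes by the root mean square distance between centred log2 profiles over the 6 libraries. For Insig1 they were Scd1, a fatty acid desaturase (distance 0.067), Scel (0.078) and Emp1 (0.081), and 5 genes in all lay within 0.1. For Srebf1 they were Pgd, an enzyme of the pentose phosphate pathway (0.011), Aurkb and Timeless, with 2084 genes within 0.1. For Srebf2 they included Bri3bp (0.011) and Glmn, with 1926 genes within 0.1. For Mbtps1 they included Rcbtb1 and Maoa. The other members had between 821 and 4309 genes within 0.1, with Msl2, Rasa1 and Pabpn1 nearest to Scap, Fam234a, Pygb and Mettl13 nearest to Insig2, Diaph1, Heatr6 and Sec23ip nearest to Mbtps2, and Vamp5, Iqgap3 and Sema4g nearest to Mylip. This is a likeness of profile in 6 libraries and nothing more.

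Genes that act beside the 8 were described from lists, by counts of calls from the same fit over all tested genes. Since 29.9% of all tested genes rose and 31.1% fell, a list with shares near these does not stand apart from the rest. Of 15 genes that degrade, hold or stabilise INSIG and SCAP, 2 rose, 11 fell and 2 did not pass the test, with a median log2 fold change of -0.16. Rnf145, a ligase reported to act on SCAP in mouse liver, had 1921, 1915 and 1949 normalized counts in siUhrf2 libraries, against 1342, 1400 and 1514 in siCtrl libraries, a log2 fold change of 0.44 (limma adjusted p = 1.43e-05). The ubiquitin-conjugating enzyme gene Ube2g2 fell by 0.39 and the ligase gene Syvn1 by 0.37 on the log2 scale (limma adjusted p = 4.02e-06 and 7.13e-06). Spring1, whose product is needed for site-1 protease activity and SCAP recycling, was picked out after its values were seen. It had 783, 769 and 786 normalized counts in siUhrf2 libraries, against 1123, 1096 and 1067 in siCtrl libraries, and fell by 0.49 on the log2 scale (limma adjusted p = 7.54e-06).

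Of 13 tested genes of the COPII coat, which packs SCAP into vesicles, 2 rose, 7 fell and 4 did not pass the test (median log2 fold change -0.09). Its 9 calls of 13 are near the 61.0% called over all tested genes, though the share that fell is above 31.1% and the share that rose below 29.9%. Sar1a, a small GTPase that starts coat assembly, rose by 0.17 (limma adjusted p = 0.0020), while the cargo adaptor Sec24a fell by 0.57 and the outer coat gene Sec31a by 0.23 on the log2 scale (limma adjusted p = 3.86e-07 and 3.45e-05). Of 6 tested genes for other substrates of the site-1 protease, 0 rose, 5 fell and 1 did not pass the test (median -0.32). Creb3, a membrane-bound transcription factor, averaged 1406 ± 33.0 normalized counts in siUhrf2 libraries and 2429 ± 106 in siCtrl libraries, with a log2 fold change of -0.79 (SD, n = 3 each, limma adjusted p = 8.53e-08). The stress sensors Atf6b and Atf6 had log2 fold changes of -0.37 and -0.32, Creb3l2 of -0.20 and Gnptab, whose product tags lysosomal enzymes after its cut by the site-1 protease, of -0.17 (limma adjusted p = 0.0104 for Gnptab and lower for the others).

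Of 20 genes for nuclear partners and modulators of SREBP, 6 rose, 6 fell and 8 did not pass the test, with a median log2 fold change of -0.01. These shares are close to those over all tested genes, 29.9% higher and 31.1% lower. Prkaa1, a catalytic subunit of AMP-activated kinase, rose by 0.71 and Lpin1, a phosphatidate phosphatase, by 0.66 on the log2 scale (limma adjusted p = 1.05e-08 and 7.56e-07). The coactivator subunit gene Med15 fell by 0.21 and the kinase gene Akt1 by 0.12 (limma adjusted p = 0.00083 and 0.0067).

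The textbook output genes of the pathway rose as lists. All 20 cholesterol synthesis enzyme genes rose, with a median log2 fold change of 1.05, for example Nsdhl by 1.18 and Idi1 by 1.03 (limma adjusted p = 3.31e-09 and 4.03e-09). Of 13 tested fatty acid synthesis genes, 12 rose and 1, Gpam, fell by 0.15, with a median log2 fold change of 0.44. Scd1 rose by 1.44 (limma adjusted p = 1.01e-09). Insig1, at 1.57, lay above every gene of both lists, whose highest values were 1.46 and 1.44, whereas Srebf1 and Srebf2 lay below both medians. These differences between genes were not tested.

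**Figure D4:**
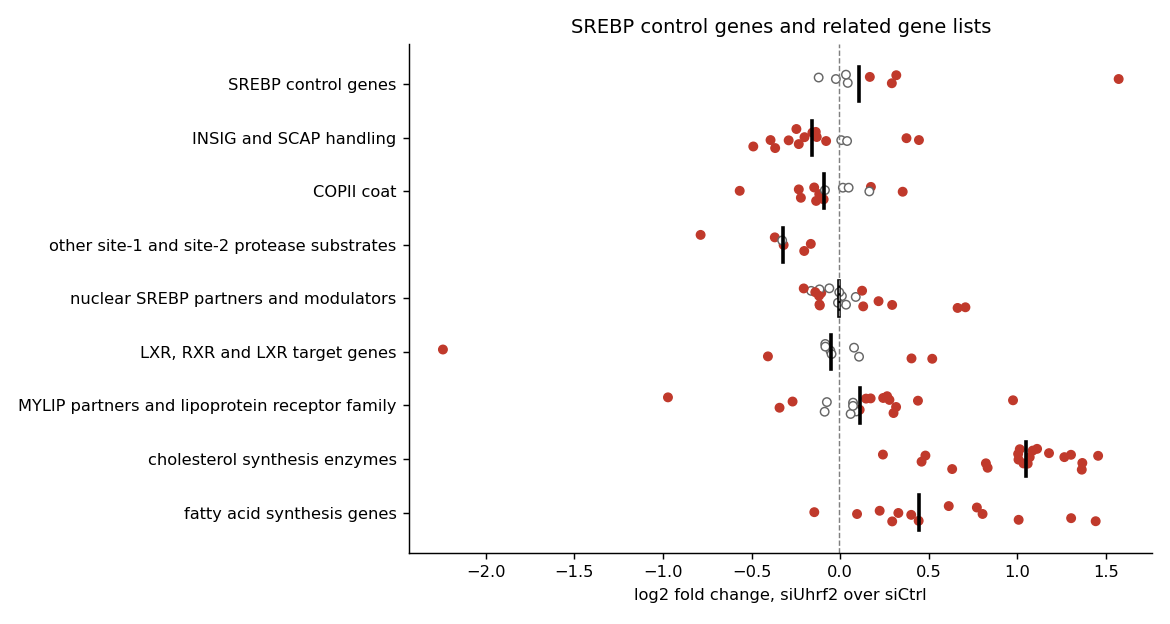
Log2 fold change, siUhrf2 over siCtrl (x axis), of every tested gene of the 8 SREBP control genes and of the related lists; each point is 1 gene, red where the limma adjusted p was under 0.05 and open otherwise, black bars are list medians and the dashed line is the median of all tested genes. The cholesterol synthesis list has the highest median, 1.05, and the protease substrate list the lowest, -0.32.

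On the receptor side, 19 genes for partners of MYLIP and for lipoprotein receptors and their adaptors were tested, of which 10 rose, 3 fell and 6 did not pass the test (median log2 fold change 0.11). The 13 calls of 19 are near the 61.0% called over all tested genes, though the share that rose is above 29.9%. Lrp8, a receptor that MYLIP can mark for degradation, had 2438, 2382 and 2464 normalized counts in siUhrf2 libraries, against 1774, 1826 and 1774 in siCtrl libraries, a log2 fold change of 0.44 (limma adjusted p = 2.33e-06). Vldlr, another such receptor, was picked out after its values were seen. It had 3872, 4228 and 3832 normalized counts in siUhrf2 libraries, against 1636, 2202 and 2292 in siCtrl libraries, a log2 fold change of 0.97 (limma adjusted p = 0.0024). Snx17, a sorting adaptor that returns receptors to the surface, rose by 0.24, while the endocytic adaptor Dab2 fell by 0.34 and Lrp10 by 0.27 on the log2 scale (limma adjusted p at most 0.00018).

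Of 10 tested genes for LXR, its RXR partners, corepressors and targets, 2 rose, 2 fell and 6 did not pass the test (median log2 fold change -0.05). In the main fit these 4 calls of 10 were a lower share than the 61.0% called over all tested genes. Abca1, the cholesterol exporter, had 461, 241 and 222 normalized counts in siUhrf2 libraries, against 1648, 1130 and 1413 in siCtrl libraries, a log2 fold change of -2.24 (SE 0.35, limma adjusted p = 0.0051). Nr1h3, which encodes LXR alpha, fell by 0.41, while Lpcat3 rose by 0.40 and Smpdl3a by 0.52 on the log2 scale (limma adjusted p = 1.79e-05, 1.35e-06 and 0.00077). Mylip, itself counted among LXR targets in the literature, did not pass the test. Under quantile normalization 7 of these 10 genes were called rather than 4.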

How the data were processed

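Total RNA of 6 AML12 samples was sequenced on an Illumina platform, per the labels' protocols. Per gene and library, the authors deposited a normalized count (a signal that is not whole reads) and an FPKM. Kallisto 0.44.0, edgeR and GRCm38.p6 are named in the submitters' processing notes, without their roles; annotation release, strand and filters were not given in the sources used here. Groups and replicate numbers come from sample titles, with 0 value columns left unused. Depth was estimated from the most common small value, taken as 1 read, at 44.6 to 53.1 M reads per library; 62.8% to 64.7% of values above 0 were whole within 0.01 read, so no count test was run and edgeR was not used here. In siCtrl replicate 1, 20437 of 20855 genes above 0 had an FPKM length within 1 base of the plain mean of their GENCODE M21 transcript lengths. No replicate pair agreed within sampling noise (chi-square over its degrees of freedom, 2.84 to 9.76), and every library was kept as its own sample.

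Genes averaging 1 FPKM or more were tested with limma 3.58.1 (R 4.3.3, statmod 1.5.0; mean-variance trend, robust variances) on log2(normalized count + 1), with Benjamini-Hochberg adjustment over all of them and a threshold of 0.05. Fold changes are on this scale, which understates changes of low genes. The procedure was tested on simulated data in which far fewer genes changed than were called here, so that test does not cover so broad a change. The 4 ratios used log2 FPKM with no pseudocount and an exact two-sided permutation test. Alternatives changed scaling, pseudocount, filter, unit, robust variances and the replicate block, and left out each library. The 8 genes and all lists were chosen with earlier results of these data known. Genes named from a list were the 2 with the smallest adjusted p in each direction at a mean of at least 5 FPKM, or all where 5 or fewer were called; for each of the 8 genes the 3 nearest profiles were named among genes averaging 5 FPKM or more, of which some are not reported here.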

Additional observations from a re-analysis of the deposited data

How the results depend on the processing

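All 4 called genes of the 8 were called in the same direction under every alternative run: 4 other scalings, 2 pseudocounts, no filter, a filter of 5 FPKM, log2(FPKM + 1), no robust variances, the replicate block and each library left out. Their log2 fold changes ranged from 1.513 to 1.604 for Insig1, 0.25 to 0.33 for Srebf1, 0.27 to 0.35 for Srebf2 and 0.14 to 0.19 for Mbtps1, whose highest adjusted p was 0.0087 (limma). Of the 4 not called, Scap ranged from 0.02 to 0.08 and Mylip from -0.21 to -0.05, though Mylip was not tested at 5 FPKM. Mbtps2 turned to 0.0012 under quantile normalization (limma adjusted p = 0.98), and Insig2 ranged from -0.011 to 0.057 with 1 library left out, below 0 without siCtrl replicate 1 (limma adjusted p = 0.84); the cause was not tested. The count for the LXR list was 7 under quantile normalization, against 4. Calls over all genes numbered 6919, between 5973 at 5 FPKM, where fewer genes are tested, and 7435 with no filter; 6010 to 7047 were called with 1 library left out. The share higher among called genes was 49.1%, and 43.6% to 52.5% under the other scalings, which moved the median of all genes to between -0.03 and 0.01.

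With the replicate block 7248 genes were called, and the 4 called genes of the 8 were the same in number. Deviations of same-numbered libraries from their group means correlated at 0.18, 0.24 and 0.066, so the numbers were not taken as pairs, although every library correlated best with its own number, a hint from the data and not from the design. Paired by number, the exact sign-flip p of the Insig1 to Insig2 ratio was 0.25, the smallest that 3 pairs allow. Depth limits Mylip most, at 184 to 226 normalized counts.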

Other observations

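Some genes already counted in the lists above had values that were not given there. Sort1, a sorting receptor for lipoproteins in the liver, had 799, 681 and 704 normalized counts in siUhrf2 libraries, against 1465, 1371 and 1440.2 in siCtrl libraries, and fell by 0.97 on the log2 scale (limma adjusted p = 2.71e-07). Paqr3, a Golgi protein reported to tether SCAP, averaged 272 ± 22.1 normalized counts in siUhrf2 libraries and 211 ± 32.1 in siCtrl libraries (SD, n = 3 each), a log2 fold change of 0.37 (limma adjusted p = 0.021). Both were picked out after their values were seen.

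The length used for the deposited FPKM was shorter than the longest protein-coding transcript for each of the 8 genes, by a factor of 1.22 for Mylip, 1.56 for Insig1, 2.93 for Srebf1, 3.44 for Insig2 and 4.09 for Scap. Per length of the longest transcript, the Insig1 to Insig2 ratio was 2.11 to 2.39 in siUhrf2 libraries and 0.769 to 0.794 in siCtrl libraries. The log2 difference between groups is the same under both lengths, whereas the statement that both transcripts stand at about equal level in siUhrf2 cells holds for the deposited length alone.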
